A study of Homo sapiens with 4 samples.

Results

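The genes described here are the metallothioneins and zinc response genes of a leukemia cell line: MT2A, MT1E, MT1F, MT1G, MT1H, MT1M and MT1X, the transcription factor gene MTF1 and the zinc exporter gene SLC30A1. These 9 genes were selected on measured values, with the FPKM levels and the knockdown contrast of these same libraries known, so the difference between groups is described for them without a test. Of the 9, 7 had a row in the deposited table, out of 16504 gene symbols, and each of the 7 was listed as 1 transcript. MT1H and MT1M had no row and have no values here. Expression was read by RNA-seq from 4 libraries labelled NB4, an acute promyelocytic leukemia line. Of these, 2 were controls with CEBPG present (titled NC) and 2 carried a knockdown of CEBPG, which encodes a C/EBP family member that pairs with other leucine-zipper factors. In the study methods, knockdown used lentiviral short hairpin RNA and puromycin selection of stable cells. The knockdown titles carry the number 3, which was read as a single hairpin, so that 1 hairpin in 1 line was compared with its control. The labels do not say whether the 2 libraries of a group came from separate cultures.

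Metallothioneins are small cysteine-rich proteins that bind zinc, copper and cadmium, buffer free zinc and take part in the defence against metal and oxidative stress. In vertebrate cells MTF1 senses raised zinc, binds metal response elements (MREs) in promoters, and activates metallothionein genes and SLC30A1, which carries zinc out of the cell. Glucocorticoids and oxidative stress also induce metallothioneins in many cell types.

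The coding sequences are shown for the pair with the highest levels, MT2A and MT1X, and for MT1G, because their likeness bears on how reads were assigned. Each runs 5′ to 3′ from the start to the stop codon, as in GENCODE release 44 (GRCh38), with the cysteine codons (TGT or TGC) in capitals.
MT2A: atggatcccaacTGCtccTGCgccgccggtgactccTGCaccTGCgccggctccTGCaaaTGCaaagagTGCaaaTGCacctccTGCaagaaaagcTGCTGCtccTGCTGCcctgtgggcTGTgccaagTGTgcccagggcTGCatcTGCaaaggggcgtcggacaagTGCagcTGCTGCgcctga
MT1X: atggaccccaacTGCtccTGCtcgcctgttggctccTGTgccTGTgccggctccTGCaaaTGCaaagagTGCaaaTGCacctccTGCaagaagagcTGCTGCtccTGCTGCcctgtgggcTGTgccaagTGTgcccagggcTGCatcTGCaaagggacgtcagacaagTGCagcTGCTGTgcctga
MT1G: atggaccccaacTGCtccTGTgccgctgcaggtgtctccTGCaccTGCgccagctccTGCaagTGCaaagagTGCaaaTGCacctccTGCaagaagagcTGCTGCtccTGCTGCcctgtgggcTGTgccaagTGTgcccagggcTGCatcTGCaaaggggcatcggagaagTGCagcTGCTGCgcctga
All 7 metallothionein members held 20 cysteine codons, among 62 codons in MT1G and 61 in the others. In MT2A this was 32.8% of codons, against 2.79% in MTF1 and 3.55% in SLC30A1. Coding sequences of the 21 pairs of members were 88.7% to 93.7% identical.

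The metallothionein members lie within 75.6 kb on chromosome 16 (GRCh38), from the start of MT2A at 56608584 to the end of MT1X at 56684196. MT2A covers 56608584 to 56609497, MT1E 56625475 to 56627112, MT1F 56657731 to 56660698, and MT1X 56682470 to 56684196, all on the plus strand. MT1G covers 56666730 to 56668065 on the minus strand. MTF1 covers 37809574 to 37859592 and SLC30A1 covers 211571568 to 211579161, both on the minus strand of chromosome 1. Of the 50-base windows along each transcript, 10.2% in MT2A, 18.0% in MT1X, 19.9% in MT1G, 6.12% in MT1F and 5.34% in MT1E occurred without mismatch in a transcript of another metallothionein gene or pseudogene. A further measure concerns MT1X, where 33.0% of such windows also occurred in an unnamed gene, with both strands searched. At 100 bases no window of these 5 transcripts was shared within the family, but 22.0% of those of MT1X were still shared with the unnamed gene. The read length was not given in the sources used here, so values of single metallothioneins are uncertain where reads could be divided between copies.

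Promoters are shown for MT2A and MT1X, which differed between groups, and for SLC30A1, which hardly did. These promoters were picked by those values, and whether match number goes with the difference was not tested. Each is the 250 bases before the annotated start from RefSeq (GRCh38.p14), on the strand of the gene. The windows are chr16:56608334-56608583 (plus) for MT2A, chr16:56682220-56682469 (plus) for MT1X and chr1:211579162-211579411 (minus) for SLC30A1. Capitals mark matches to the MRE core, written TGCACNC or TGCGCNC, on either strand.
MT2A: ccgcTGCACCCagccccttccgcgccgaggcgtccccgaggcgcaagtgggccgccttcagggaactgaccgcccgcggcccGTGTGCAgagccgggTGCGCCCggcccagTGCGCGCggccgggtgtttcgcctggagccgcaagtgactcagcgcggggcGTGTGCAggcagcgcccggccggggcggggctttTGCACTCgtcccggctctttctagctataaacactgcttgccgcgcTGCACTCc
MT1X: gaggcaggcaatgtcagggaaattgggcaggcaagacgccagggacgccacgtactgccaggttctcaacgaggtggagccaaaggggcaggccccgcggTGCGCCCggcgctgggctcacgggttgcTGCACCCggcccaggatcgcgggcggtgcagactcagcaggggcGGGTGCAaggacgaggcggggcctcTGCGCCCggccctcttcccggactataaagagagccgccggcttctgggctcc
SLC30A1: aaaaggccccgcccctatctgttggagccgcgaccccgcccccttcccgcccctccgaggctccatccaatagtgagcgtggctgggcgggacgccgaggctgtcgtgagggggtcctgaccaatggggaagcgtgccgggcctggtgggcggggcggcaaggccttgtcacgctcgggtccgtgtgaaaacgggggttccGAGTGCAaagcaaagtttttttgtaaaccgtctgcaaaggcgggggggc
The promoter table held 5 of the 9 members and had no entry for MT1E, MT1F, MT1G and MT1M. In the 300-base window that also takes in 50 bases after the start, MT2A had 8 matches to the MRE core, MT1H 8, MT1X 4, SLC30A1 2 and MTF1 0. At least 1 match was found in 29.6% of 35116 such windows, at least 3 in 2.30%, and 8 or more in 7 windows (0.0199%), MT2A and MT1H among them. At least as many matches as in MT1X were found in 0.601% of windows, and at least as many as in SLC30A1 in 8.60%. In MT2A 7 of the 8 matches lay before the start, the nearest of them beginning 8 bases before it, and in MT1X the nearest began 53 bases before it.

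**Figure D1:**
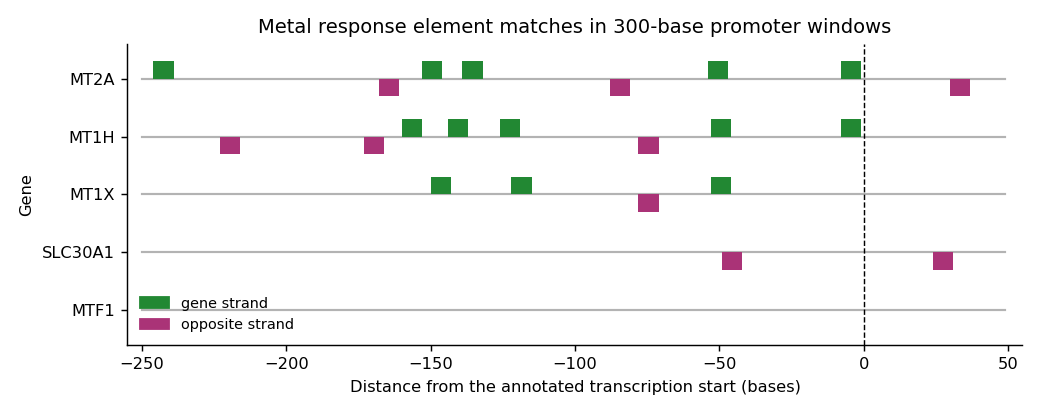
Matches to the MRE core (blocks, above the line on the strand of the gene and under it on the opposite strand) by distance in bases from the annotated start (0, dashed) in 5 promoter windows. MT2A and MT1H held 8 matches each, MT1X 4, SLC30A1 2 and MTF1 0.

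Other motifs were searched on both strands in the same windows. The CEBP-ATF core TGATGNAA was in none of the 5 windows, and in 3.62% of all windows. The CEBP core TTNCNNAA was found 1 time in SLC30A1 and not in the others, and in 36.8% of all windows. The core of the NRF2 element, TGACNNNGC, was found 1 time each in MT2A, MT1X and SLC30A1, and in 13.3% of all windows. A TATAAA box was found 1 time each in MT2A and MT1X, and in 11.5% of all windows. No match to these motifs overlapped an MRE match in the 5 windows. A match is a description of letters and not of binding.

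The knockdown was read on CEBPG itself, which was at 17.1 and 18.1 FPKM (fragments scaled to transcript length and to the mapped fragments) in controls 1 and 2, against 6.91 and 7.96 FPKM in knockdown libraries 1 and 2. This was a log2 fold change of -1.14 (standard error, SE, 0.082, limma, adjusted p = 0.000836). FPKM summed to 345340 to 366139 per library, and read depth was unknown. The label NB4 was set against markers. All 10 erythroid markers were above 5 FPKM, with HBG2 at 2890 to 3766 FPKM and GATA1 at 109.9 to 128.3 FPKM, and their summed level was 7419 to 7862 FPKM in the controls and 8435 to 9022 FPKM in the knockdown. Of 10 promyelocytic and myeloid markers, 6 stayed under 1 FPKM in every library, among them PRTN3 (0.0897 to 0.188 FPKM) and AZU1 (0.370 to 0.570 FPKM). The summed level of the 10 was 42.5 and 43.6 FPKM in the controls and 44.7 and 45.1 FPKM in the knockdown, over members that differed in direction. LYZ was at 20.1 and 18.1 FPKM in the controls and 15.0 and 15.5 FPKM in the knockdown, CD33 at 4.31 and 7.57 against 9.77 and 9.41 FPKM, and SPI1 at 15.6 and 15.2 against 17.1 and 17.2 FPKM. Of 6 lymphoid markers, 5 had a row and 4 of them stayed under 1 FPKM, while CD3D was at 32.3 and 33.3 FPKM in the controls and 67.0 and 56.4 FPKM in the knockdown. The markers go against the labelled promyelocytic line, and the libraries are therefore called by their labels only. The part of these markers in the results was not tested.

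MT2A, the most abundant metallothionein in these libraries, was at 10.99 and 9.34 FPKM in controls 1 and 2, against 25.4 and 23.0 FPKM in knockdown libraries 1 and 2. Both knockdown libraries were high, and the lower of them was 2.09 times the higher control. The mean was 10.2 ± 1.17 FPKM (SD, n = 2) in the controls and 24.2 ± 1.69 FPKM (SD, n = 2) in the knockdown, a ratio of 2.38. On the log2(FPKM + 1) scale, which understates differences of low genes, the difference was 1.18 with an SE of 0.091. It ranked 18th from the highest among the 10968 genes averaging 1 FPKM or more.

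MT1X was the other metallothionein above 1 FPKM in every library. It was at 7.24 and 6.04 FPKM in controls 1 and 2, against 14.1 and 14.7 FPKM in knockdown libraries 1 and 2. The groups did not overlap, and the lowest knockdown value was 1.94 times the highest control value. The means were 6.64 ± 0.850 and 14.4 ± 0.448 FPKM (SD, n = 2 each), and the difference on the log2(FPKM + 1) scale was 1.01 with an SE of 0.090.

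The other 3 metallothioneins with a row were low. MT1G was at 0.564 and 0.544 FPKM in controls 1 and 2, against 1.41 and 1.54 FPKM in knockdown libraries 1 and 2. Its mean over the 4 libraries was 1.015 FPKM, so that it stood just inside the limit of 1 FPKM for testing, and only through its knockdown values. MT1F, the nearest member under the limit, had a mean of 0.426 FPKM, at 0.209 and 0.0968 FPKM in the controls and at 0.796 and 0.603 FPKM in the knockdown. MT1E was at 0.255 FPKM in control 1, listed at 0 in control 2, and at 0.542 and 0.635 FPKM in the knockdown. MT1F and MT1E stayed under 1 FPKM in every library. In all 3, chosen with this contrast known, both knockdown libraries lay above both control libraries, where 34.3% of all tested genes did so. The differences on the log2(FPKM + 1) scale were 0.67 for MT1G, 0.56 for MT1F and 0.50 for MT1E. With a pseudocount of 0.1 they were 1.27, 1.69 and 1.87, so the size of a difference in these low genes depends on the pseudocount.

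Summed over the 5 metallothioneins with a row, the level was 19.3 and 16.02 FPKM in controls 1 and 2, against 42.2 and 40.5 FPKM in knockdown libraries 1 and 2. The mean was 17.6 ± 2.29 FPKM (SD, n = 2) in the controls and 41.3 ± 1.22 FPKM (SD, n = 2) in the knockdown, a ratio of 2.34. MT2A held the largest share of the sum in all 4 libraries, followed by MT1X. MT2A held 57.1% and 58.3% of it in the controls and 60.2% and 56.8% in the knockdown. MT1X held 37.6% and 37.7% in the controls and 33.3% and 36.3% in the knockdown. MT1G, MT1F and MT1E together held 5.34% and 4.0% in the controls and 6.52% and 6.87% in the knockdown. The ratio of MT2A to MT1X was 1.52 and 1.55 in the controls and 1.81 and 1.57 in the knockdown, where the spread between knockdown libraries was wider than the gap between groups.

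MTF1, the zinc sensor that activates metallothionein genes, was at 2.69 and 2.40 FPKM in controls 1 and 2, against 3.73 and 3.54 FPKM in knockdown libraries 1 and 2. The groups did not overlap, and the lowest knockdown value was 1.32 times the highest control value. The means were 2.54 ± 0.205 and 3.63 ± 0.133 FPKM (SD, n = 2 each), with a difference of 0.39 (SE 0.093) on the log2(FPKM + 1) scale, a smaller value than for any metallothionein with a row.

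SLC30A1, the exporter that MTF1 activates when zinc is high, was at 8.27 and 8.43 FPKM in controls 1 and 2, against 8.04 and 8.17 FPKM in knockdown libraries 1 and 2. Both knockdown values lay under both control values by a small margin. The means were 8.35 ± 0.115 and 8.11 ± 0.0949 FPKM (SD, n = 2 each), and the difference on the log2(FPKM + 1) scale was -0.037 with an SE of 0.067. The ratio of MT2A to SLC30A1 was 1.33 and 1.11 in the controls and 3.16 and 2.81 in the knockdown.

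**Figure D2:**
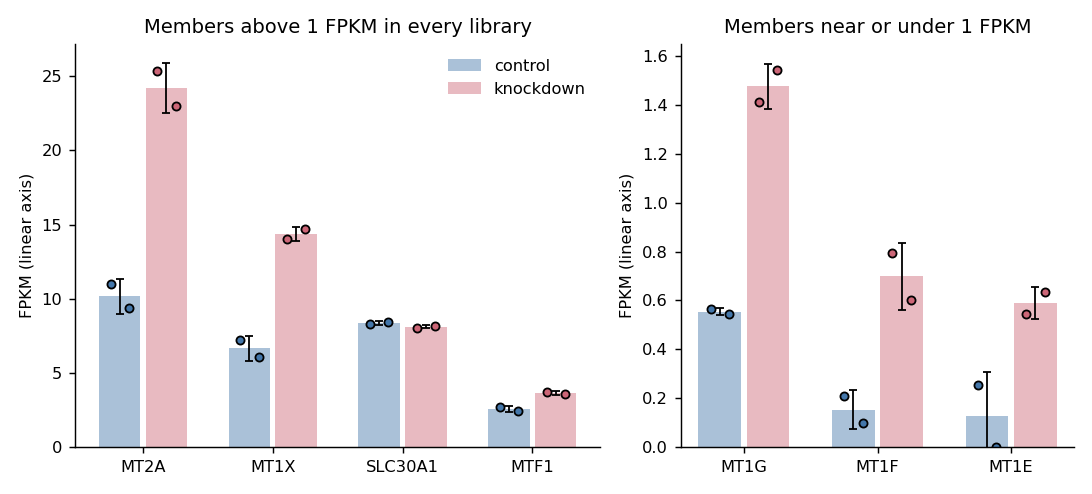
FPKM (vertical, linear axis) of the 7 members with a row, in control and knockdown libraries. Points are libraries, bars are means of 2 libraries and error bars are SD. Knockdown points lie above control points for every member shown except SLC30A1, where 34.3% of all tested genes did so. MT2A is at 23.0 to 25.4 FPKM against 9.34 to 10.99 FPKM.

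Over the 7 members with a row, both knockdown libraries lay above both control libraries in 6, where 34.3% of all tested genes did so. The median difference of the 7 was 0.56 on the log2(FPKM + 1) scale, against 0.015 over all tested genes. Since the members were chosen with this contrast known, nothing is read from these numbers. The order of levels, which FPKM gives per length, was MT2A, SLC30A1, MT1X, MTF1, MT1G, MT1F and MT1E in the controls. In the knockdown MT1X stood above SLC30A1, at 14.4 against 8.11 FPKM, and the order was otherwise the same. MT1F and MT1E overlapped over the libraries of each group and could not be ordered, while the other neighbours in the order did not overlap. The control mean of MT2A was above that of 67.7% of all gene symbols in the table and its knockdown mean above 83.5%. For MT1X these shares were 59.4% and 74.5%, for SLC30A1 63.8% and 63.0%, and for MTF1 43.9% and 48.7%.

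The genes whose profile over the 4 libraries was nearest to that of MT2A were CD68, INAFM1, CDKN1A, CCDC74A and ITGA5, by Euclidean distance between log2(FPKM + 1) values centred on the mean of each gene. Their distances were 0.055, 0.099, 0.124, 0.130 and 0.158. CD68, a lysosomal glycoprotein of macrophages, was at 20.6 and 18.5 FPKM in the controls and 47.3 and 43.9 FPKM in the knockdown. CDKN1A, an inhibitor of cyclin-dependent kinases, was at 6.97 and 5.89 FPKM in the controls and 15.3 and 15.8 FPKM in the knockdown. MT1X came 13th in this order at 0.215, MT1G 116th, MTF1 580th and SLC30A1 6527th. The likeness rests on 4 libraries in 2 groups.

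The flanking genes within 250 kb of the cluster were read as well. Of 6 tested, 0 had an adjusted p under 0.05 in limma where 20.9% of all tested genes were called, and 1 had an unadjusted p under 0.05, where 4057 of 10968 genes did. BBS2, a ciliary protein gene 25.9 kb before MT2A, was at 1.86 and 1.74 FPKM in the controls and at 1.88 FPKM in both knockdown libraries. NUP93, a nuclear pore gene 45.9 kb after MT1X, was at 48.1 and 42.2 FPKM in the controls and 48.5 and 48.4 FPKM in the knockdown. The highest of the 6 was HERPUD1, an endoplasmic reticulum stress gene 248 kb after MT1X, with a difference of 0.21 (SE 0.065, limma adjusted p = 0.0593). The median of the 6 was 0.103 on the log2 scale. The metallothioneins between them, at 0.50 to 1.18, were chosen with this contrast known, so nothing is read from the gap.

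**Figure D3:**
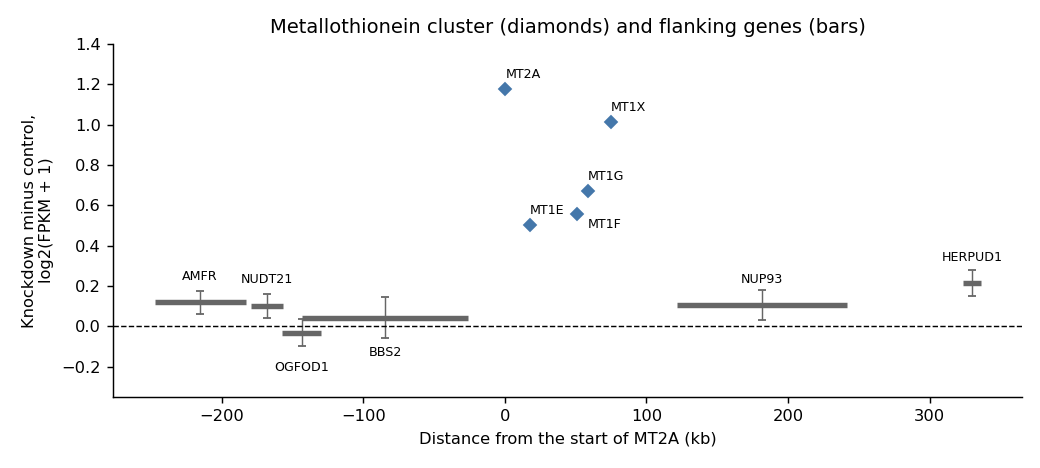
Difference between knockdown and control on the log2(FPKM + 1) scale (vertical) by distance in kb from the start of MT2A (horizontal), for 5 metallothioneins (diamonds) and 6 flanking genes (bars spanning the gene, with SE from limma). The metallothioneins, chosen with this contrast known, lie at 0.50 to 1.18 and the flanking genes at -0.032 to 0.21.

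The wider pathway was read from lists of zinc transporters, copper handling, heavy metal stress and glucocorticoid response, and 8 further metallothionein genes and pseudogenes (such as MT1A and MT3), of which 0 had a row. Of 54 listed genes tested, 10 had an adjusted p under 0.05 and were higher in the knockdown and 7 were lower (limma). Over all tested genes 10.9% were called higher and 9.99% lower. This balance moved with scaling: 52.1% of all calls were higher, against 48.4% and 46.7% under the 2 scalings. Without knockdown 1 the total of 17 was 8, where 809 of all 10941 genes were called, and without knockdown 2 it was 10, where 865 of 10947 were. When each gene was represented by its most abundant transcript 0 of 52 passed, and of all 15795 transcripts 25 did (3213 at an unadjusted p under 0.05). With no filter on low values 10 of the 17 passed in limma, where 882 of all 16504 genes did, and the calls lost were those on SLC30A6 (adjusted p = 0.0587), SLC39A4 (0.0876), SCO1 (0.0559), STEAP3 (0.0662), SRXN1 (0.0672), NQO1 (0.0703) and TSC22D3 (0.0759).

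Of 6 tested zinc exporters of the SLC30 family other than SLC30A1, 1 rose and 0 fell, with a median of 0.152. The share called was 16.7%, against 20.9% of all tested genes. The gene that rose was SLC30A6, a transporter of the secretory pathway, from 10.1 and 9.76 FPKM to 12.2 and 12.7 FPKM (0.30, SE 0.065, limma adjusted p = 0.0214). Its call was also lost without control 2 (adjusted p = 0.0631), without knockdown 1 (0.0826) and without knockdown 2 (0.108). SLC30A10, a manganese exporter, was at 1.68 and 1.43 FPKM in the controls and 1.07 and 0.878 FPKM in the knockdown (-0.37, limma adjusted p = 0.0729). In the other direction, SLC30A3 was at 1.26 and 0.912 FPKM in the controls and 1.65 and 1.76 FPKM in the knockdown (0.38, limma adjusted p = 0.0745). Neither was called.

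Of 11 tested zinc importers of the SLC39 family, 2 rose and 1 fell (27.3% called, against 20.9% of all tested genes). The median was -0.031, and 0.047 without knockdown 2. SLC39A6 rose from 7.10 and 7.14 FPKM to 11.8 and 12.1 FPKM (0.67, SE 0.066, limma adjusted p = 0.0018). SLC39A4, the intestinal zinc importer, rose from 77.8 and 68.9 FPKM to 106.4 and 92.0 FPKM (0.43, SE 0.090, limma adjusted p = 0.0198), a call also lost without knockdown 1 (adjusted p = 0.12). SLC39A10, an importer whose gene MTF1 is known to repress in mouse cells, fell from 7.31 and 6.68 FPKM to 3.97 and 4.47 FPKM (-0.61, SE 0.087, limma adjusted p = 0.0057). SLC39A14, an importer of zinc and iron, was at 18.0 and 17.3 FPKM in the controls and 14.6 and 16.7 FPKM in the knockdown, which was not called.

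Of 15 copper handling genes, 1 rose and 3 fell (26.7% called, against 20.9% of all tested genes), with a median of 0.132. COX17, a copper chaperone for cytochrome c oxidase, fell from 40.5 and 41.1 FPKM to 28.9 and 25.7 FPKM (-0.56, SE 0.071, limma adjusted p = 0.0040). SCO1, which receives copper from COX17, fell from 21.0 and 19.2 FPKM to 12.3 and 14.4 FPKM (-0.56, SE 0.089, limma adjusted p = 0.0083). STEAP3, a metalloreductase of iron and copper, changed by -0.39 (limma adjusted p = 0.0162) and COX19, another assembly factor of the oxidase, by 0.35 (0.0137). SLC31A1, the copper importer, was at 13.5 and 14.1 FPKM in the controls and 15.0 and 15.4 FPKM in the knockdown, and ATOX1, a cytosolic copper chaperone, was at 42.1 and 34.8 FPKM in the controls and 37.7 and 37.8 FPKM in the knockdown, and neither was called. Without control 2 the median of the list was -0.102. Without knockdown 1 the number called was 2, with the calls on COX19 (adjusted p = 0.0677) and STEAP3 (0.0927) lost, and the COX19 call was also lost without knockdown 2 (0.0721).

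Of 14 heavy metal stress genes, 4 rose and 3 fell, where 20.9% of all tested genes were called. SQSTM1, an autophagy receptor, rose from 79.9 and 73.8 FPKM to 141.1 and 135.2 FPKM (0.84, SE 0.064, limma adjusted p = 0.001), SRXN1, an antioxidant enzyme, rose by 0.42 (0.0141), and TXNRD1 and NQO1, both oxidoreductases, named after their values were seen, rose by 0.37 (0.0088) and 0.35 (0.0189). HSPA1A, a heat shock chaperone, fell from 69.4 and 61.5 FPKM to 43.8 and 43.0 FPKM (-0.58, SE 0.072, limma adjusted p = 0.0038) and HSPA1B, a near-identical copy with uncertain division of reads, from 51.4 and 48.7 FPKM to 36.02 and 33.3 FPKM (-0.52, limma adjusted p = 0.0040). HSPH1, also named after its values were seen, changed by -0.33 (limma adjusted p = 0.0106). GCLC and GCLM, the subunits of glutamate-cysteine ligase, differed by 0.25 and -0.064 and were not called. The same held for SLC7A11, a cystine transporter (0.16), and for the co-chaperones DNAJB1 (-0.14) and BAG3 (0.12). Without knockdown 1, and again without knockdown 2, 3 of the 14 were called, where the calls over all genes fell to 809 and 865 from 2288, and the calls on SRXN1, TXNRD1, NQO1 and HSPH1 were lost (adjusted p from 0.0506 to 0.119).

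Of 8 glucocorticoid-responsive genes, 2 rose and 0 fell (25.0% called, against 20.9% of all tested genes). The median was -0.034, but 0.0051 without knockdown 2 and 0.032 with no filter on low values. NR3C1, the glucocorticoid receptor itself, rose from 8.09 and 8.25 FPKM to 11.3 and 12.0 FPKM (0.46, SE 0.068, limma adjusted p = 0.0061), while its most abundant transcript alone differed by -0.083 (limma adjusted p = 0.866). TSC22D3, an early target of the receptor, rose from 1.25 and 1.39 FPKM to 2.01 and 2.05 FPKM (0.39, SE 0.104, limma adjusted p = 0.0424), and leaving out any 1 of the 4 libraries ended this call (adjusted p from 0.0795 to 0.146). FKBP5, another target of the receptor, was at 66.0 and 63.6 FPKM in the controls and 59.1 and 60.6 FPKM in the knockdown and was not called (limma adjusted p = 0.196). SGK1, also not called, was higher, at 1.22 and 1.54 FPKM in the controls and 2.41 and 1.94 FPKM in the knockdown (0.41, limma adjusted p = 0.0603).

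**Figure D4:**
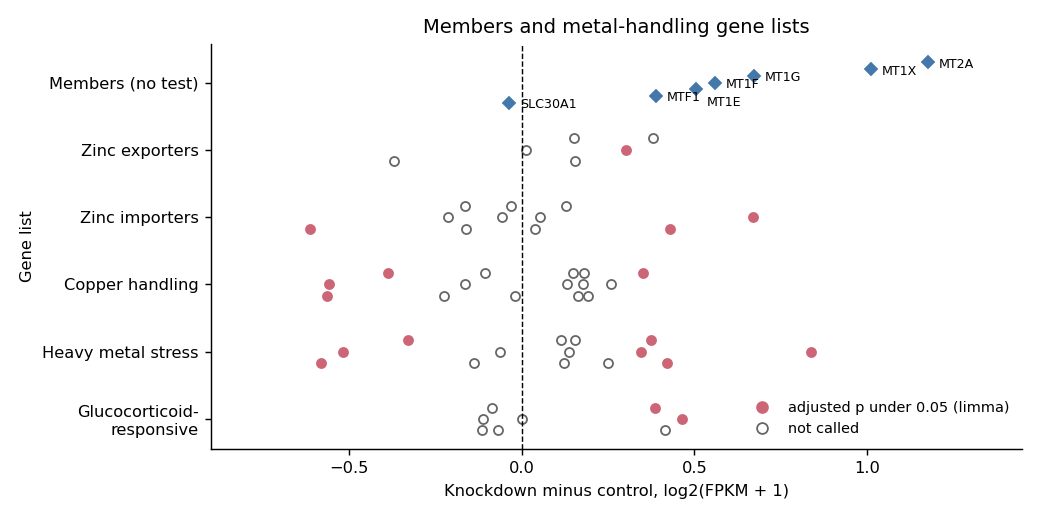
Difference between knockdown and control on the log2(FPKM + 1) scale (horizontal) for the 7 members with a row (diamonds, no test) and for the tested genes of 5 lists (circles, filled where limma gave an adjusted p under 0.05). MT2A is at 1.18 and MT1X at 1.01, and the genes of the 5 lists run from -0.61 for SLC39A10 to 0.84 for SQSTM1. The members were chosen with this contrast known, so nothing is read from their place beside the lists. Vertical offsets within a list only separate points.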

How the data were processed

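Total RNA went into Illumina TruSeq libraries, per the labels. The authors mapped filtered reads with HISAT2 2.0.5 to hg38 (submitters' processing notes) and deposited FPKM values for 29265 RefSeq transcripts. The quantifier and annotation release were not given in the sources used here. FPKM carries no counts, so depth and counting error were unknown. Low values did not reveal whole reads: the most common rounded ratio between control libraries made up 1.30% of 2235 low genes.

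Rows without a symbol (164) or value (183) were left out, and transcripts were summed to 16504 symbols. The 10968 genes averaging 1 FPKM or more were compared on log2(FPKM + 1) in limma 3.58.1 (R 4.3.3), with the prior variance trended on the mean; tests were 2-sided and p-values were adjusted by Benjamini-Hochberg. The code was tested on simulated data. With 2 libraries a group, p-values measure only the spread between these libraries, which may be technical. Members and lists were chosen with earlier results of these data known. Named were all members, up to 4 called genes per list with the largest change, the 5 genes nearest MT2A, and CEBPG. Flanking genes and a few uncalled list genes were given as context, the latter after their values were seen.

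Positions and transcripts came from GENCODE release 44 (MANE Select; for MT1E, whose MANE transcript codes for a longer protein, the coding transcript nearest in length to MT2A), aligned in Biopython 1.88. Alternatives were a pseudocount of 0.1, no filter, the replicate block, transcripts, 2 scalings, moderation without a trend, and each library left out.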

Additional observations from a re-analysis of the deposited data

How the results depend on the processing

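The number of genes called (2288) was 882 with no filter on low values, 25 for transcripts, 3440 with the replicate block, and 809 to 1931 with a library left out. The number of called genes in the pathway lists (17) was 10 with no filter, 0 for transcripts, 21 with the replicate block, and 8 to 16 with a library left out. The labels do not say whether same-numbered libraries shared a batch or day. Their deviations correlated at 0.101 over genes, which cannot decide this. All 2288 genes were also called under the block. The median difference of the 7 members with a row (0.559) was 1.25 with a pseudocount of 0.1 and 0.489 to 0.667 with a library left out. SLC30A1 ranged from -0.058 to -0.025. Of the 169 values of the 17 called list genes under alternatives, 127 kept their call, 41 lost it in the same direction, and 1 reversed: the most abundant NR3C1 transcript was at -0.0831 (limma, adjusted p = 0.866). The causes were not tested. With 2 libraries a group and unknown depth, differences in genes under 1 FPKM could not be sized.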
